A study of Mus musculus with 6 samples.

Results

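The centromere, kinetochore and spindle checkpoint genes were followed here in the heart, as 40 genes taken by gene symbol from the 45777 genes of the deposited table, with values from 6 libraries. No symbol was absent and no gene fell under a mean of 10 counts, so all 40 were among the 18328 genes tested. They were sorted into 7 groups by role, from the histone that marks the centromere to the proteins that hold sister chromatids together there. The RNA was heart RNA. The mice were female CAnN.Cg-Foxn1nu/Crl, which is a BALB/c nude strain, 6 weeks old by the labels, and all of them carried tumours of the human breast cancer line MDA-MB-231 under the skin. From day 7 after the tumour cells they were given vehicle (Control), the ginsenoside Rh2 in PBS with Tween 80 every day at 20 mg/kg (Rh2-20) or 30 mg/kg (Rh2-30), doxorubicin at 2 mg/kg every other day up to a cumulative 22 mg/kg (Dox), or each Rh2 dose together with doxorubicin (Rh2-20 + Dox and Rh2-30 + Dox), over 3 weeks. Doxorubicin is an anthracycline that poisons topoisomerase II, and Rh2 is a saponin of ginseng. Each condition had 1 library, pooled from the hearts of 5 mice, and the nude host has few T cells.

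The kinetochore is the protein assembly through which a chromosome is gripped by the spindle. It is built on nucleosomes that contain the histone variant CENP-A, on which an inner network stays through the cell cycle, while the outer microtubule-binding layer and the checkpoint proteins assemble for mitosis. Most of the outer and checkpoint genes are transcribed mainly in G2 and M phase of dividing cells, and cardiomyocytes of the adult mouse heart rarely divide.

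The libraries held 86164411 to 90621002 counts. The heart label was borne out by the cardiac myosin heavy chain Myh6, at 1021390 to 1348308 counts a library. With 3 libraries on each side, Dox against no Dox called 2 of all genes lower and 3 higher at an adjusted p under 0.05 in edgeR's quasi-likelihood test. The comparisons of 1 condition with another had 1 library a side and carry no test, and the response to Rh2 dose was tested over all 6 libraries. The Rh2-30 library stood apart in markers of other tissues, with the brown fat gene Ucp1 at 6442 read counts against 0 to 12 elsewhere and the atrial peptide Nppa at 56331 against 3252 to 16608. Because the libraries on each side of the Dox comparison differ in Rh2 dose and stand for pools, its p-values measure the spread between these pools. In RNA of a whole organ, fewer cells of a type and less RNA per cell cannot be told apart.

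Of the 40 genes, Cenpf passed the adjusted threshold and was lower with Dox, where 0.0109% of all genes tested were called lower. It had the smallest p of all 18328 genes. At an unadjusted p under 0.05, 16 of the 40 were lower and 0 higher, against 5.91% and 4.2% of all genes. In 20 of the 40 every Dox library lay under every library without Dox, against 9.16% of all genes, and in 0 it was the reverse, against 7.85%. The median log2 fold change was -0.40 over the 40 genes and -0.01 over all genes. Without the Rh2-30 library, 15 of the 40 were lower at an unadjusted p under 0.05, where 1665 of all 18328 genes passed in either direction. In that fit 21 of the 40 were lower in each Dox library. With a library fewer such separation is easier to reach, and its share over all genes was not computed. The 21 can therefore not be set against the 9.16%. The heat map of the 6 libraries shows where the low values lie.

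**Figure D1:**
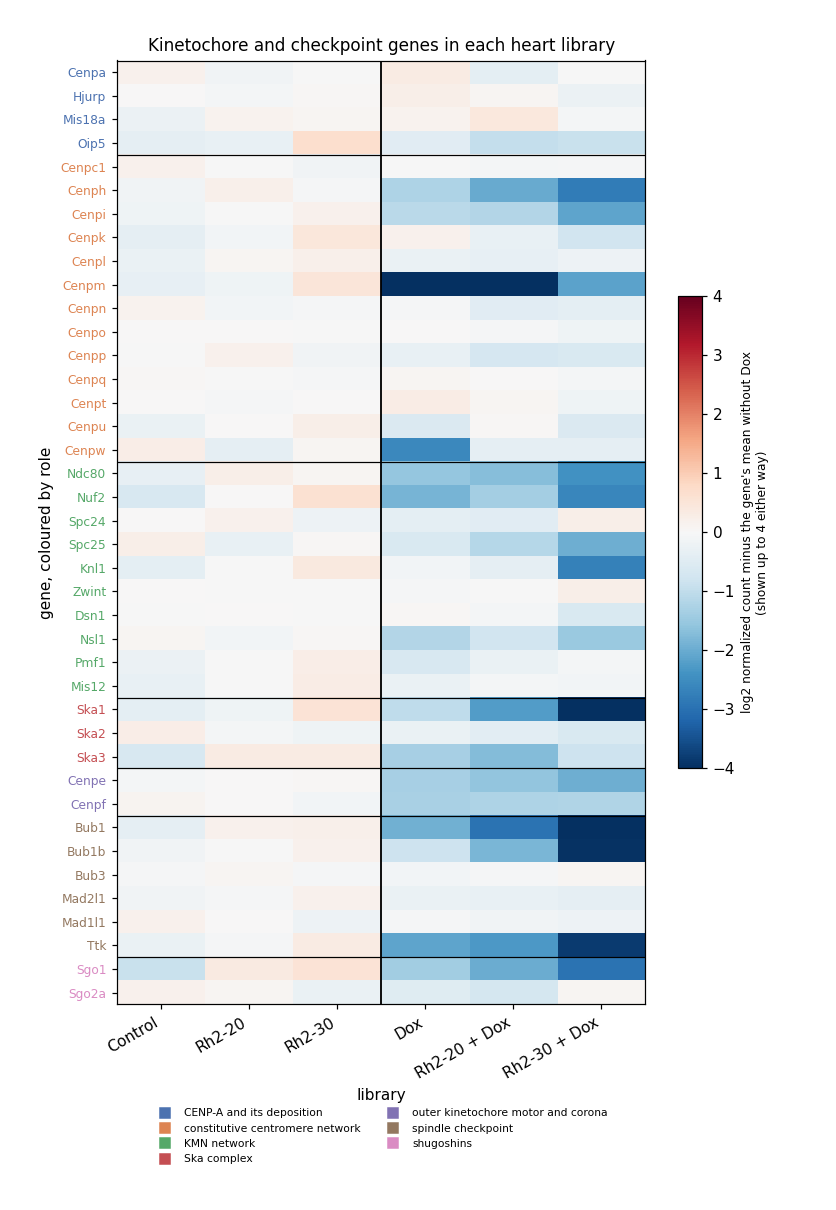
Log2 normalized count of each of the 40 genes (rows, coloured and ruled off by role) in each library (columns, without Dox left of the line and with Dox right of it), minus the gene's own mean over the 3 libraries without Dox, with blue for lower and red for higher and the colour held at 4 either way. Blue is seen in the Dox columns for Cenph, Cenpi, Cenpm, Ndc80, Nuf2, Ska1, Cenpe, Cenpf, Bub1, Bub1b, Ttk and Sgo1, while Hjurp, Cenpc1, Cenpq, Zwint and Bub3 stay pale across all 6.

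The sequence before the start site is shown for a few genes that were lower with Dox and a few that were not, because promoters of G2 and M phase genes are known to carry CCAAT boxes and a cell cycle genes homology region. Each is the run of 120 bases before the start site in RefSeq's tables (build GRCm38.p6), in the direction of transcription, with a CCAAT box (CCAAT, or ATTGG on the other strand) or a homology region (TTTGAA, or TTCAAA on the other strand) in capitals. For Cenpf and Cenpn the span of the whole gene begins further upstream, at 189688107 and 116921716. Their windows thus lie partly inside that span, as do both marked motifs of Cenpn. The first 4 genes were lower in every Dox library, and the last 3 were not.
Cenpf, chr1:189688087-189688206, minus strand: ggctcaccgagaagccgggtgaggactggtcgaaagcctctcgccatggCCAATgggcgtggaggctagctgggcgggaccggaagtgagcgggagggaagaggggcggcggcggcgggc
Cenpe, chr3:135212443-135212562, plus strand: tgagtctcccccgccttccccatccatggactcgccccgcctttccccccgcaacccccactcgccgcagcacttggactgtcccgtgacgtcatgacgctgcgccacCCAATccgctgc
Bub1, chr2:127831860-127831979, minus strand: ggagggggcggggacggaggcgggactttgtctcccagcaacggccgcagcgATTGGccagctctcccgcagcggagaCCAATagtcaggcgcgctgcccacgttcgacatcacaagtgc
Spc25, chr2:69206214-69206333, minus strand: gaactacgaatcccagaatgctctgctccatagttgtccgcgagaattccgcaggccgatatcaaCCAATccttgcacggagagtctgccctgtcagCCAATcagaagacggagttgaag
Cenpn, chr8:116921620-116921739, plus strand: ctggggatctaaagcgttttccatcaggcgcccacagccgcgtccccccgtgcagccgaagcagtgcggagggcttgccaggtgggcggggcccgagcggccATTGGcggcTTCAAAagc
Zwint, chr10:72654726-72654845, plus strand: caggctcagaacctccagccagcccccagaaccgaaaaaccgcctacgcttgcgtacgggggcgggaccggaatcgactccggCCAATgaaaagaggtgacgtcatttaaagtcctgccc
Cenpq, chr17:40934575-40934694, minus strand: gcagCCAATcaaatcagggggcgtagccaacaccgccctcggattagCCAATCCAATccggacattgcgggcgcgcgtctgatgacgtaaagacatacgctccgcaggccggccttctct
A CCAAT box lay within 250 bases before the start in 57.1% of the 42 promoters of 37 of the 40 genes and in 33.8% of all 32851 promoters searched. The share was 55.6% (10 of 18 promoters) for genes lower in every Dox library and 58.3% (14 of 24 promoters, of 19 genes) for the others. The letters TTTGAA were held by 16.7% of the members' promoters and 16% of all promoters. Among the members' promoters it was in 2 of the 18 and 5 of the 24, where Bub3 entered more than once with the same site. The 7 sequences shown were picked as holding a motif, and neither motif was found in the 250 bases before Ndc80, Nuf2, Cenpi, Cenph or Sgo1. The letters of the 2 motifs can overlap each other. The 3 genes not matched to a promoter were Nsl1, Spc24 and Ska1.

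Among the genes of CENP-A and its deposition, levels with and without Dox were close, with a group median of 0.02 on the log2 scale, and 0 of 4 passed even the unadjusted threshold. Cenpa, the histone H3 variant of the centromere, had 981 read counts in Control, 853 in Rh2-20, 992 in Rh2-30, 1113 in Dox, 736 in Rh2-20 + Dox and 910 in Rh2-30 + Dox. The Dox libraries span the others, and the log2 fold change was 0.00 ± 0.20, where the error here and below is the SD of the 3 log2 ratios at matched Rh2 dose. Hjurp, the chaperone that deposits CENP-A, had the highest level per length of the 40, at 11.1 to 15.4 FPKM, and a log2 fold change of 0.04 ± 0.26. Mis18a, which licenses that deposition, stood at 0.17 ± 0.28. Oip5, the partner of Mis18a in the same complex, had 22, 25 and 52 read counts without Dox and 21, 16 and 16 with it. Its Dox libraries were the 3 lowest, at a log2 fold change of -0.84 ± 0.74 and an unadjusted p of 0.0997. Its exons share 9.67% of their bases with those of Nusap1 on the other strand, and the sources used here do not give whether counting used strand.

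The constitutive centromere network binds CENP-A nucleosomes and carries the outer kinetochore. Of its 13 genes, 4 were lower with Dox at an unadjusted p under 0.05 (Cenpi, Cenph, Cenpm and Cenpp) and 0 higher. Over all genes 5.91% were lower and 4.2% higher, and the group's median log2 fold change was -0.28. Cenpi, whose protein shares a complex with those of Cenph and Cenpk, had 222, 268 and 323 read counts in Control, Rh2-20 and Rh2-30. In Dox, Rh2-20 + Dox and Rh2-30 + Dox it had 119, 122 and 60. The 2 sets were apart, with a log2 fold change of -1.40 ± 0.74 (unadjusted p = 0.00228, adjusted p = 0.244). Cenph, of the same complex, had 57, 78 and 70 read counts in Control, Rh2-20 and Rh2-30, and 27, 17 and 9 in the Dox libraries in the same order of Rh2 dose. It was lower in each, at -1.90 ± 0.86 (unadjusted p = 0.0037, adjusted p = 0.287). Cenpk, also of that complex, did not follow them, with 78, 99 and 155 read counts without Dox against 113, 89 and 61 with Dox. The 2 sets overlap, at a log2 fold change of -0.28 ± 0.87.

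Cenpm, a member of the network that resembles a small GTPase, was the most extreme value of the 40 and rests on few reads. It had 25, 30 and 50 read counts in Control, Rh2-20 and Rh2-30, and 0, 0 and 7 in Dox, Rh2-20 + Dox and Rh2-30 + Dox. With a count of 0 taken as at most 3, it was at least 8.41-fold lower in Dox than in Control and at least 10.2-fold lower in Rh2-20 + Dox than in Rh2-20. The fitted log2 fold change, which with counts this low depends on the prior count, was -3.79 (unadjusted p = 0.0112, adjusted p = 0.349). It was -8.11 without the Rh2-30 + Dox library, the only Dox library with a read, and -1.55 on log2(FPKM + 0.1). Cenpw, which forms a histone-fold pair with Cenpt, had 67, 47 and 67 read counts without Dox and 9, 47 and 45 with Dox, so that the Dox library alone stood far below the rest (log2 fold change -0.83 ± 1.52). Cenpw, Cenpk, Knl1 and Bub1b were chosen for their library values after these were seen.

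Other genes of the network differed little. Cenpq had 235, 244 and 248 read counts without Dox and 241, 254 and 223 with it, at a log2 fold change of 0.01 ± 0.03, the smallest spread of the 40. Cenpc1, the mouse gene of the scaffold CENP-C, gave -0.05 ± 0.14 at 10.6 to 12.5 FPKM. Cenpt, which recruits the Ndc80 complex, gave 0.08 ± 0.24, and its partner Cenpw is described above. The remaining log2 fold changes were -0.53 for Cenpp, -0.36 for Cenpu, -0.28 for Cenpl, -0.28 for Cenpn and -0.07 for Cenpo. Exons on the other strand share 26.7% of the bases of Cenpu (Primpol), 19% of Cenpo (Adcy3) and 12.3% of Cenpp (Ippk).

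The KMN network is the microtubule-binding core, made of Knl1 with Zwint, the Mis12 complex and the Ndc80 complex. Its 10 genes had a median log2 fold change of -0.53. At an unadjusted p under 0.05, 4 were lower (Ndc80, Nuf2, Nsl1 and Spc25) and 0 higher, against 5.91% and 4.2% of all genes. Within the Ndc80 complex, which contacts the microtubule, 3 of the 4 subunit genes were lower in every Dox library, against 9.16% of all genes. Ndc80 (chr17:71496100-71526857) had 199, 321 and 302 read counts in Control, Rh2-20 and Rh2-30, and 87, 84 and 48 with Dox. The lowest library without Dox held more than any library with it, with a log2 fold change of -1.87 ± 0.66 (unadjusted p = 0.000393, adjusted p = 0.156). Its partner Nuf2 had 104, 176 and 279 read counts without Dox and 44, 68 and 27 with Dox, a log2 fold change of -1.96 ± 1.10 (unadjusted p = 0.0027). Spc25 gave -1.16 ± 0.66 (unadjusted p = 0.0163). Spc24, which pairs with Spc25, had 93, 112 and 90 read counts without Dox against 70, 73 and 111 with Dox. The sets overlap through Rh2-30 + Dox, at -0.19 ± 0.56.

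In the Mis12 complex, which joins the inner network to Ndc80, the genes differed. Nsl1 had 103, 96 and 113 read counts without Dox and 43, 62 and 36 with it. It was lower in each Dox library, at -1.12 ± 0.44 (unadjusted p = 0.00464, adjusted p = 0.304). The other subunits overlapped between the sets, with log2 fold changes of -0.32 for Pmf1, -0.18 for Dsn1 and -0.16 for Mis12. Knl1, the scaffold on which the checkpoint kinase Bub1 docks, had 942, 1304 and 1830 read counts in Control, Rh2-20 and Rh2-30, and 1139, 1039 and 194 in Dox, Rh2-20 + Dox and Rh2-30 + Dox. Only the last library was low, and the log2 fold change was -0.73 ± 1.79 (unadjusted p = 0.243). Zwint, bound to Knl1, had 1745, 1841 and 1907 read counts without Dox and 1657, 1850 and 2092 with it, a log2 fold change of 0.06 ± 0.18.

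The Ska complex helps kinetochores stay on shortening microtubules. Its 3 genes were each lower in every Dox library, against 9.16% of all genes. Ska1 had 34, 43 and 75 read counts without Dox and 22, 10 and 0 with it, a log2 fold change of -2.17 ± 3.42 (unadjusted p = 0.0643). Ska3 had 35, 74 and 79 read counts without Dox and 22, 18 and 32 with Dox, a log2 fold change of -1.33 ± 0.69 (unadjusted p = 0.0148). Ska1 and Ska3 thus rest on well under 100 reads a library. Ska2 is read far more deeply, with 1181, 1014 and 1002 read counts without Dox and 828, 811 and 679 with Dox. Its difference was small but even, at -0.44 ± 0.09 (unadjusted p = 0.0221, adjusted p = 0.413), and 10.1% of its exonic bases are shared with an antisense gene, Gm11491.

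Cenpf and Cenpe, large coiled-coil proteins of the outermost kinetochore, had the smallest p-values of the 40. Cenpf (chr1:189640606-189688107), which links the kinetochore to dynein and to nuclear membranes, had 2830 read counts in Control, 2922 in Rh2-20 and 2768 in Rh2-30, and 1097 in Dox, 1243 in Rh2-20 + Dox and 1196 in Rh2-30 + Dox. The 3 libraries within each set were close to each other and the sets far apart, at 2820 ± 216 normalized counts without Dox and 1190 ± 32.4 with it (SD, n = 3). Cenpf fell 2.37-fold, a log2 fold change of -1.24 ± 0.15 (adjusted p = 0.0381). The call was lost with Rh2 dose as a term (adjusted p = 0.119), with Rh2 dose as a block (adjusted p = 0.476) and without Control (0.113), Rh2-20 (0.102), Dox (0.122) or Rh2-20 + Dox (0.131). It held without Rh2-30 (adjusted p = 0.0491) or Rh2-30 + Dox (adjusted p = 0.0372).

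Cenpe (chr3:135212563-135273540), the kinesin that carries chromosomes to the metaphase plate, had 1149, 1333 and 1433 read counts in Control, Rh2-20 and Rh2-30, and 482, 443 and 323 in Dox, Rh2-20 + Dox and Rh2-30 + Dox. It stood at 1290 ± 61.1 normalized counts without Dox and 421 ± 89.4 with Dox (SD, n = 3), and every Dox library was under every other. The log2 fold change was -1.61 ± 0.38 and missed the adjusted threshold (adjusted p = 0.0769). Its adjusted p was 0.0372 without the Rh2-30 + Dox library, 0.122 to 0.28 without any other library, 0.158 with Rh2 dose as a term and 0.476 with it as a block.

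The spindle checkpoint delays anaphase until every kinetochore is attached, and its 6 genes split into a low-level set with large differences and a high-level set with small ones. Bub1 (chr2:127800197-127831859), the kinase that recruits the other checkpoint proteins, had 275, 433 and 469 read counts without Dox and 95, 50 and 19 with Dox. The Dox libraries were the 3 lowest, at a log2 fold change of -2.78 ± 1.46 (unadjusted p = 0.0013, adjusted p = 0.216). Ttk (chr9:83834651-83872390), the kinase that starts checkpoint signalling, had 209, 263 and 358 read counts without Dox and 59, 56 and 18 with it, a log2 fold change of -2.60 ± 1.24 (unadjusted p = 0.000633, adjusted p = 0.164). Bub1b, which encodes the checkpoint effector BubR1, had 343, 405 and 490 read counts without Dox and 217, 118 and 25 with Dox. It too was lower in each Dox library, at -1.73 ± 1.77 (unadjusted p = 0.0311), with the widest gap at the higher Rh2 dose.

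Bub3, the adaptor that binds both Bub1 and BubR1, had 2202, 2612 and 2505 read counts without Dox and 2139, 2441 and 2518 with Dox. The sets overlap and the log2 fold change was -0.01 ± 0.13. Mad1l1, which brings Mad2 to unattached kinetochores, gave -0.14 ± 0.11, and its partner Mad2l1, the inhibitor of Cdc20, gave -0.32 ± 0.22 with the 3 Dox libraries lowest (unadjusted p = 0.0517). Per length, Bub3 stood at 9.24 to 10.9 FPKM over the libraries and Mad1l1 at 6.45 to 8.35, while Bub1 stood at 0.0353 to 0.934.

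Of the shugoshins, which protect cohesin at the centromere, Sgo1 had 53, 137 and 166 read counts without Dox and 38, 27 and 13 with Dox. Each Dox library was lower, at a log2 fold change of -2.12 ± 1.52 (unadjusted p = 0.00514, adjusted p = 0.314). Sgo2a, best known from meiosis, had 2339, 2375 and 1949 read counts without Dox and 1473, 1396 and 2251 with Dox. Its Rh2-30 + Dox library lay among those without Dox, and the log2 fold change was -0.35 ± 0.62. Of its exonic bases 35% are shared with Kctd18 on the other strand, and without strand the reads of both genes cannot be told apart there.

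**Figure D2:**
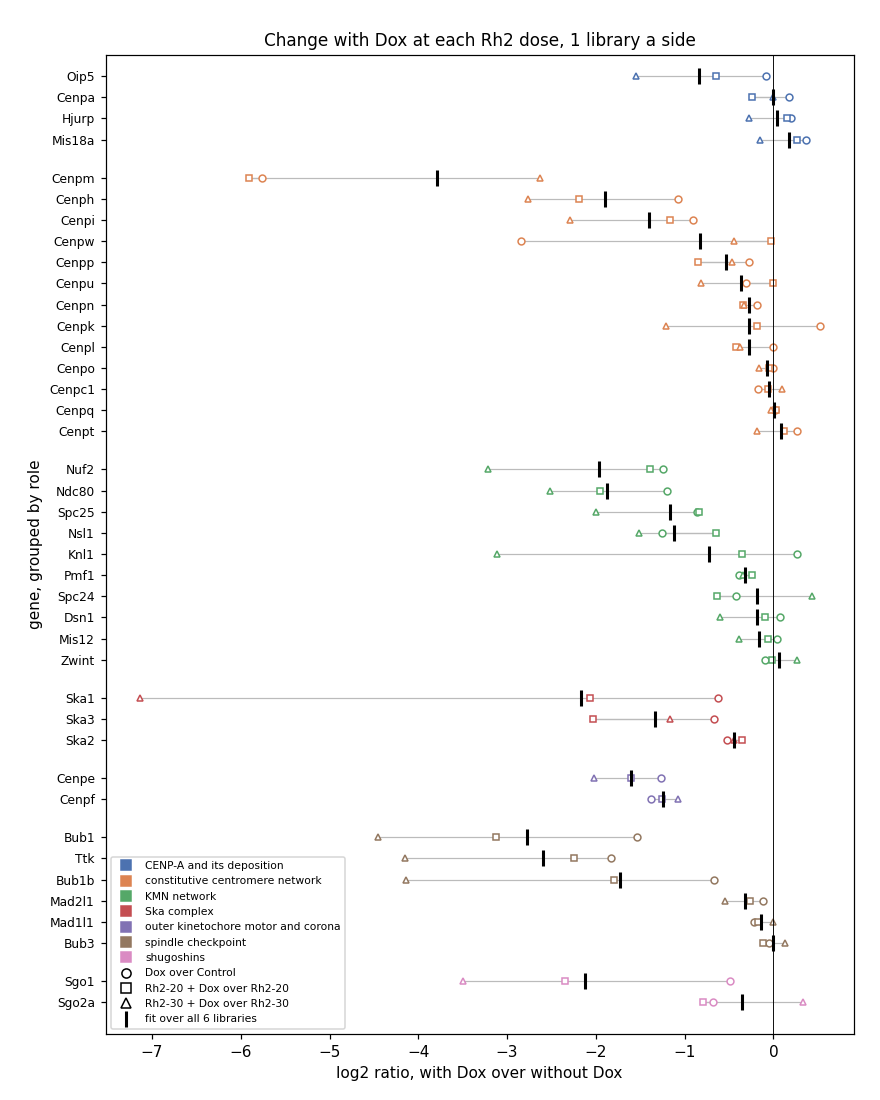
Log2 ratio of each gene with Dox over without Dox (x axis), by role (colour), with open symbols for the 3 pairs of libraries at the same Rh2 dose and a black bar for the fit over all 6 libraries. The checkpoint genes Bub1, Ttk and Bub1b lie left of 0 in all 3 pairs with their lowest ratio at the higher Rh2 dose, Cenpf keeps its 3 ratios between -1.38 and -1.08, and ratios of Cenpm and Ska1 beyond -5 come from libraries with a count of 0.

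The 3 pairs of libraries at matched Rh2 dose share no library. From Control to Dox, 10 of the 40 genes were at least 2-fold lower and 0 at least 2-fold higher, against 3.58% and 5.44% of all genes tested. From Rh2-20 to Rh2-20 + Dox it was 13 and 0, against 2.87% and 4.09%. From Rh2-30 to Rh2-30 + Dox it was 18 and 0, against 12.1% and 2.4%. The medians of the 40 genes were -0.35, -0.38 and -0.57 on the log2 scale, where those of all genes were 0.00, 0.00 and -0.03. Cenph, Cenpm, Ndc80, Nuf2, Cenpe, Cenpf, Bub1 and Ttk were at least 2-fold lower in all 3 pairs, which is 8 of the 40 against 0.497% of all genes. The 18 of the last pair thus stand against the highest background of the 3. Without Rh2, the 10 were these 8 with Nsl1 and Cenpw. In the middle pair Cenpi, Bub1b, Sgo1, Ska1 and Ska3 joined the 8, and in the last pair also Cenpk, Knl1, Nsl1, Oip5 and Spc25.

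Rh2 was compared with its own baseline in the absence and in the presence of Dox. Both Rh2 libraries are set against the same Control library, and both combined libraries against the same Dox library. Against Control, 0 of the 40 were at least 2-fold lower in Rh2-20 (2.8% of all genes) and 1 higher (3.35%). That 1 was Sgo1, at a log2 ratio of 1.25. In Rh2-30, 0 were at least 2-fold lower (1.63% of all genes) and 3 higher (8.48%). These were Sgo1 at 1.45, Nuf2 at 1.23 and Oip5 at 1.04. Against Dox, 3 were at least 2-fold lower in Rh2-20 + Dox (3.44% of all genes) and 1 higher (3.08%). The lower ones were Ska1, Bub1 and Bub1b, and the higher was Cenpw at 2.20. In Rh2-30 + Dox, 9 were at least 2-fold lower (7.35% of all genes) and 2 higher (2.76%). The lower ones were Bub1, Bub1b, Cenph, Cenpi, Knl1, Sgo1, Ska1, Spc25 and Ttk, and the higher Cenpw at 2.22 and Cenpm, at 7 read counts over 0. Of the 10 genes at least 2-fold lower in Dox than in Control, Cenpw alone was at least 2-fold higher than Dox in both combined libraries, and the Dox library enters both ratios.

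**Figure D3:**
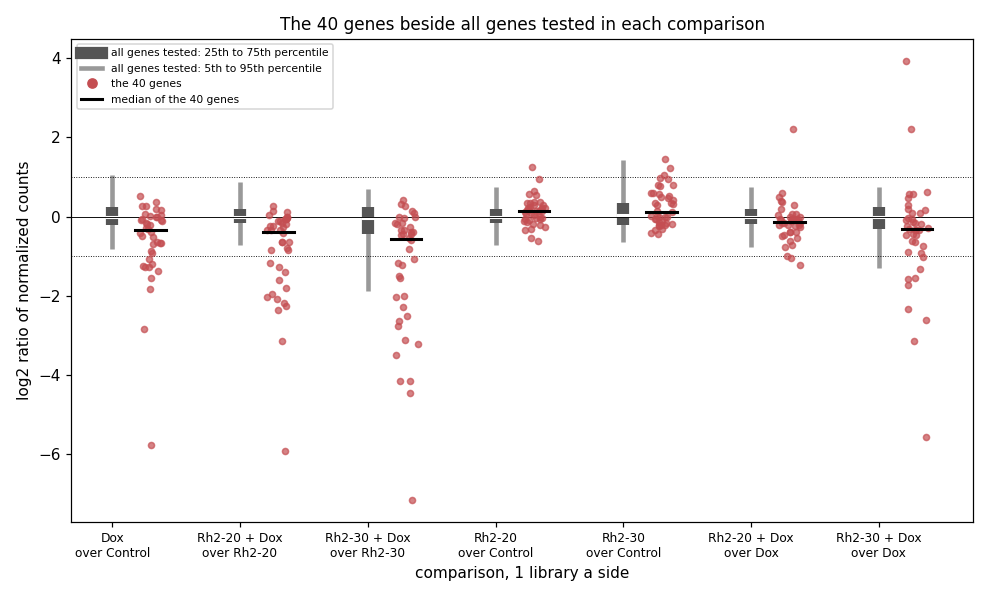
Log2 ratio of normalized counts (y axis) in the 7 comparisons of 1 library with another (x axis), with red points for the 40 genes, a black line for their median, and grey bars for all genes tested (wide for the middle 50% and narrow for the 5th to the 95th percentile). The 40 genes trail downward in the 3 comparisons of Dox with no Dox, down to -7.14 for Ska1, and sit between -0.62 and 1.45 in the 2 comparisons of Rh2 with Control.

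Whether the response to Rh2 dose differed with Dox was tested as the difference of the slopes on dose, scaled to 30 mg/kg of Rh2 (edgeR, quasi-likelihood). At an adjusted p under 0.05, 0 of all genes passed, and 1069 were lower and 669 higher at an unadjusted p under 0.05. Of the 40 genes, 5 were lower with Dox at an unadjusted p under 0.05 (5.83% of all genes) and 2 higher (3.65%). The lower ones were Bub1 with a slope difference of -2.79 (unadjusted p = 0.00424), Sgo1 with -2.96, Bub1b with -3.02, Cenpe with -0.72 and Cenpk with -1.65. Each had an adjusted p of 0.519. The higher ones were Cenpm and Cenpw, the genes at 0 and 9 read counts in the Dox library. Knl1 had a slope difference of -2.78 (unadjusted p = 0.0669). In Cenpf it was 0.28 (unadjusted p = 0.174). The normalized counts of its 3 Dox libraries had an SD of 32.4 around 1190. The median slope difference was -0.40 over the 40 genes and -0.02 over all genes. With DESeq2's Wald test in place of edgeR's, 143 genes of the heart and 0 of the 40 passed an adjusted p under 0.05.

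**Figure D4:**
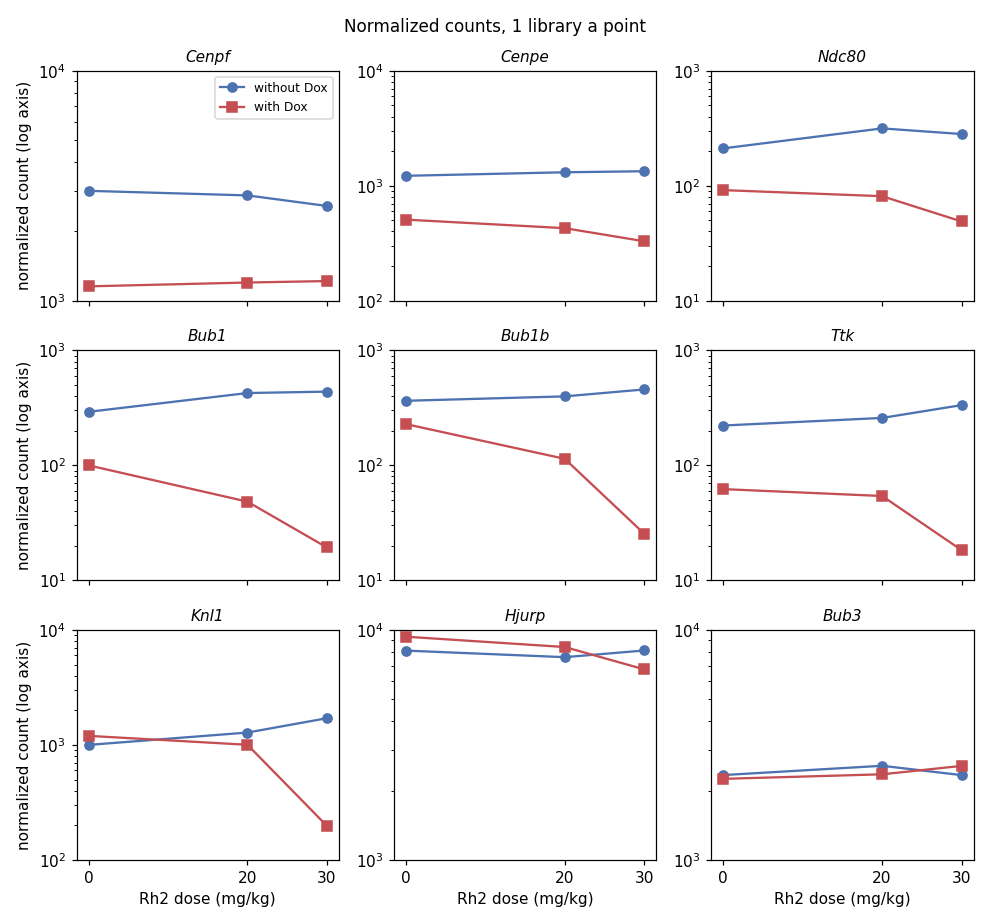
Normalized counts (y axis, log scale, with its own range in each panel) against Rh2 dose in mg/kg (x axis) for 9 genes, with 1 library a point, blue circles without Dox and red squares with Dox. Cenpf stays level with dose in both sets, Cenpe, Ndc80, Bub1, Bub1b and Ttk decline with dose under Dox, Knl1 is low in Rh2-30 + Dox alone, and Hjurp and Bub3 run together.

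In steps of dose, 10 genes went up from Control to Rh2-20 to Rh2-30 and down from Dox to Rh2-20 + Dox to Rh2-30 + Dox, a pattern looked for after the values were seen and shown by 5.24% of all genes tested. They were Cenpi, Cenpk, Knl1, Ska1, Cenpe, Bub1, Bub1b, Mad2l1, Ttk and Sgo1. The Rh2-30 + Dox library was the lowest of the 6 for 23 of the 40 genes and for 23.1% of all genes. Values of other cell types moved between the same libraries. The summed level of the 8 fibroblast markers was 1550 to 2620 CPM (the count scaled to library size) without Dox and 1020 to 1720 with Dox, highest in Rh2-30 and lowest in Rh2-30 + Dox. The 8 macrophage markers summed to 378 to 572 CPM without Dox and 258 to 450 with it, again highest in Rh2-30 and lowest in Rh2-30 + Dox. At an unadjusted p under 0.05, 2 of the 8 fibroblast markers (Col1a1 and Col3a1) and 1 of the 8 macrophage markers were lower with Dox. So were 2 endothelial, 2 fat and 2 T, B and NK cell markers, where 5.91% of all genes were. At that threshold 1 T, B and NK cell marker and 1 cardiomyocyte marker were higher. In the fit 6 fibroblast markers lay below 0 and 2 above it, Pdgfra at 0.19 and Dcn at 0.23. No fibroblast or macrophage marker was at 0 in any library. Fibroblast medians were 0.02, 0.19 and -1.44 in the 3 pairs by rising Rh2 dose and macrophage medians -0.18, -0.14 and -1.40. The 6 mesothelial markers gave -0.17, 1.51 and -2.54, with 5 of them at least 2-fold lower in the last pair. The fat markers gave 0.00, -0.07 and -8.67, and their sum was 235 CPM in Rh2-30 and 90.5 to 106 in the other libraries. The last pair had the most kinetochore genes at least 2-fold lower. In it the fibroblast, macrophage, mesothelial and fat lists also had their lowest medians of the 3 pairs. Other lists had medians there of 0.60 (cardiomyocyte), 0.14 (neutrophil), -0.07 (epidermis), -0.09 (smooth muscle and pericyte) and -0.22 (endothelial). The erythroid median was -1.05 there and that of T, B and NK cell markers -1.33. The erythroid markers summed to 10600, 5920 and 1660 CPM in Dox, Rh2-20 + Dox and Rh2-30 + Dox. Of the 7 tested, 6 were at least 2-fold higher in Dox than in Control, against 5.44% of all genes. All 7 were at least 2-fold lower in Rh2-30 + Dox than in Dox, against 7.35% of all genes. Klf1, at a mean of 1.5 counts, was too low to be tested. It had 0 read counts in Control, Rh2-20, Rh2-30 and Dox, 3 in Rh2-20 + Dox and 6 in Rh2-30 + Dox. The part of these cell type markers in the kinetochore values was not tested.

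The level of a gene ran with its change. Of the 20 genes with a mean of up to 0.83 FPKM over the 6 libraries, 15 were lower in every Dox library, with a median log2 fold change of -1.36. Of the 20 above it, 5 were (Cenpp, Ska2, Cenpe, Cenpf and Mad2l1), with a median of -0.22. Over all genes tested that share was 9.16%, and it was not computed for genes of like level. The means include the Dox libraries, so genes that were low there are drawn toward the first set, and 10 of the genes in it have a mean under 100 counts. Cenpq, at 0.508 to 0.581 FPKM, shows a low level without a difference, and Cenpe and Cenpf show one at a higher level. Summed over the 40 genes the level was 414, 405 and 403 CPM without Dox and 363, 336 and 316 with it, since Hjurp, Cenpc1, Bub3 and other genes of small change carry most of the counts.

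**Figure D5:**
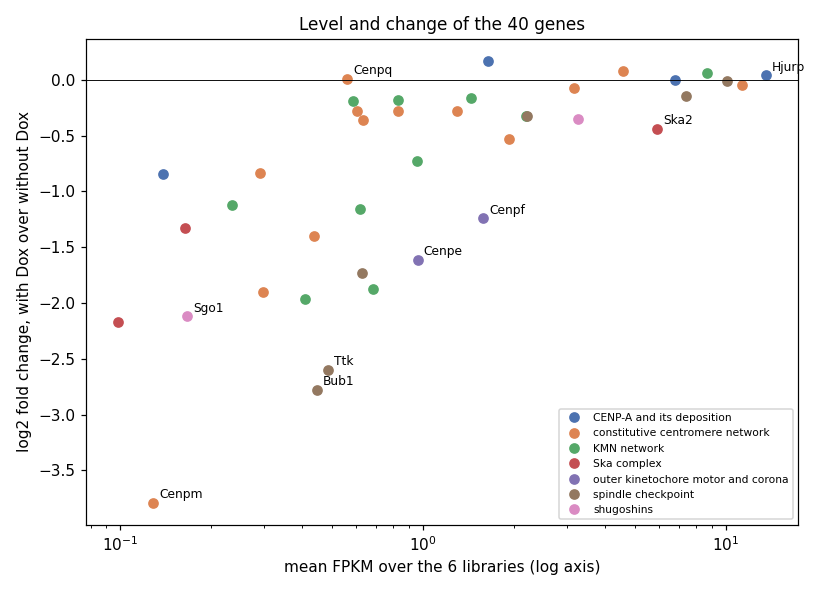
Mean FPKM over the 6 libraries (x axis, log scale) and log2 fold change with Dox over without Dox (y axis) of the 40 genes, 1 point a gene, coloured by role. At the right lie genes of small change, among them Hjurp at 0.04 and Ska2 at -0.44, while Bub1, Ttk, Sgo1 and Cenpm lie far down at low FPKM and Cenpq lies at 0.01.

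Genes that work beside the kinetochore were set next to it, with 5.91% of all genes lower and 4.2% higher at an unadjusted p under 0.05. All 4 genes of the chromosomal passenger complex, which corrects wrong attachments, were lower at an unadjusted p under 0.05, with a median log2 fold change of -1.39, and its kinase Aurkb had the smallest p (-1.67, unadjusted p = 0.00425). Among other centromere and kinetochore proteins, 6 of 15 were lower and 0 higher, led by Kntc1, of the complex that brings dynein and Mad1 to kinetochores, at -2.70 (adjusted p = 0.083), while Sgo2b, the copy of Sgo2a, was at 0 in every library. Of the 20 genes listed around the anaphase-promoting complex, which include the separase gene, 4 were lower and 1 higher, with a median of -0.04. The smallest p was that of the separase gene Espl1 (-1.46, unadjusted p = 0.00129). Cohesin, which holds sister chromatids and also shapes chromatin outside mitosis, had 1 of 13 lower and 1 higher with a median of -0.02, and Mau2 had the smallest p (0.41, unadjusted p = 0.0141). In 3 of the 13 (Smc1a, Esco2 and Cdca5) every Dox library lay under every library without Dox, against 9.16% of all genes. In 2 it was the reverse, against 7.85%. Esco2 had 128, 157 and 207 read counts without Dox and 89, 78 and 0 with it. Cdca5 had 27, 33 and 47 without Dox and 20, 0 and 0 with it.

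Mitotic kinases, cyclins and kinesins gave 18 of 19 lower at an unadjusted p under 0.05, with a median of -1.71. Of these the centrosomal kinase Nek2 fell with Dox, from 136, 155 and 151 read counts to 20, 15 and 14 (-3.13, adjusted p = 0.0401). That call too was lost with Rh2 dose as a term (adjusted p = 0.146) or block (0.476) and without any 1 library (0.0588 to 0.185). The DNA replication genes had 10 of 24 lower and 0 higher, with a median of -0.35, and Pole, the catalytic subunit of DNA polymerase epsilon, had the smallest p (-0.63, unadjusted p = 0.000416). The medians by role within the kinetochore were -1.43 for Cenpe and Cenpf, -1.33 for the Ska complex, -1.24 for the shugoshins, -1.02 for the checkpoint, -0.53 for the KMN network, -0.28 for the constitutive network and 0.02 for CENP-A and its deposition. The difference between these role groups was not tested.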

How the data were processed

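RNA was extracted from hearts pooled from 5 mice per condition, captured with SureSelect XT RNA Direct and read as 101 bases (HiSeq2500). Per the submitters' processing notes, bcl2fastq 2.20.0, Trimmomatic, HISAT2 2.1.0, StringTie 2.1.3b and mm10 were used, with the UCSC table browser's annotation. The authors deposited a whole-number read count per gene without normalization, an FPKM scaled by transcript length and by library, and a TPM, which was not used here. All 18 value columns were matched to a library by name, with 0 left over. Whether counting used strand is not given in the sources used here.

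The main tool was edgeR 4.0.16 under R 4.3.3, with TMM normalization and its two-sided quasi-likelihood test. The 18328 genes tested averaged 10 counts or more over the libraries, and p-values were adjusted over all of them by Benjamini-Hochberg. Dox against no Dox set 3 libraries against 3, and the slope test used Dox, Rh2 dose and their product. Pairs of single libraries were given as log2 ratios of normalized counts with a prior count of 0.5, called at 2-fold, with 95% intervals from the exact binomial distribution of the 2 counts, which cover counting error only. A count of 0 was taken as at most 3. FPKM served for levels per length and for alternatives. Alternatives were DESeq2 1.42.0 (size factors, Wald test), no filter on low counts, Rh2 dose as a term or block, limma 3.58.1 on log2(FPKM + 1) and log2(FPKM + 0.1), a prior count of 2, a 1.5-fold limit and each library left out. Steps were tested on simulated data. Promoters were RefSeq's on GRCm38.p6, and shared exons were read from GENCODE on the same build. Figures were drawn with matplotlib 3.10.9.

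The genes and lists were chosen with earlier results of these data known. Library values are given for genes past the adjusted threshold, for the 12 smallest p-values, and for the largest and smallest change in each role group. Outside this rule they are also given for Cenpw, Cenpk, Knl1, Bub1b and Spc24. From each other list the gene with the smallest p is named, and Sgo2b, Smc1a, Esco2 and Cdca5 are named besides.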

Additional observations from a re-analysis of the deposited data

Results flagged for a closer look

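In 2 of the 40 genes, both Rh2 libraries lay above Control and both combined libraries below Dox, each by more than the 95% counting interval. The pattern was looked for in the 40 genes alone, so its share over all genes tested is not known. In Bub1 the log2 ratios were 0.54 and 0.58 against Control and -1.04 and -2.34 against Dox, and the slope difference was -2.79 per 30 mg/kg. In Knl1 they were 0.36 and 0.77 against Control and -0.26 and -2.60 against Dox, with a slope difference of -2.78. The opposite direction of 4 single libraries is not itself a test, both Rh2 ratios share the Control library and both combined ratios the Dox library. In the slope test neither gene passed after adjustment (edgeR's quasi-likelihood test, adjusted p = 0.519 for Bub1 and 0.521 for Knl1). Arms of 3 libraries were too small for a check of single outlying libraries.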

How the results depend on the processing

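Under all 13 alternatives to the fit of Dox against no Dox, the median of the 40 genes was below 0 and 0 of the 40 were higher at an unadjusted p under 0.05. Members lower at that threshold numbered 16 in the fit reported, 15 to 18 with other tools, scalings and terms, and 12 to 17 with a library left out. All genes past it, in either direction, numbered 1852, 1598 to 2224 and 1475 to 1688, and the fit without a filter tested more genes. Members lower in each Dox library were 20 to 21 and, with a library left out, 20 to 24. Leaving out a library makes such separation easier to reach, and its share over all genes was not computed for these alternatives. The median was -0.40, with -0.19 on log2(FPKM + 1), where the added 1 compresses low genes, and -0.47 to -0.39 with a library left out. The 5 genes past the adjusted threshold became 425 with DESeq2's Wald test and 0 with Rh2 dose as a term or as a block and with limma on log2(FPKM + 1). With a library left out they were 0 to 14, 0 without Control, Rh2-20, Dox or Rh2-20 + Dox, 3 without Rh2-30 and 14 without Rh2-30 + Dox. Members past it were 9 with the Wald test, 0 with Rh2 as a term or block or with limma on either FPKM scale, and 0 to 2 with a library left out. Cenpf lay between -1.29 and -0.76 throughout. The cause of these differences was not tested. Replicate numbers pair no samples, as each condition has 1 library, and the block on Rh2 dose stood in for a pairing.

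Genes near 0 took either sign with a library left out, over ranges of -0.19 to 0.17 for Cenpa, -0.07 to 0.16 for Hjurp, -0.11 to 0.04 for Cenpc1, -0.02 to 0.05 for Cenpq, -0.04 to 0.19 for Cenpt, -0.04 to 0.11 for Zwint, -0.29 to 0.02 for Mis12 and -0.07 to 0.04 for Bub3. On log2(FPKM + 1), Cenpq was at -0.01 and Cenpu at 0.01, and on log2(FPKM + 0.1) Cenpq was at -0.03.

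With the share of all genes past the same limit in brackets, a 1.5-fold limit gave 16 lower members in Dox over Control (8.58%), 1 lower (6.62%) and 3 higher (6.95%) in Rh2-20 over Control, 10 higher in Rh2-30 over Control (16.1%), 6 lower (7.4%) and 2 higher (6.93%) in Rh2-20 + Dox over Dox, and 14 lower in Rh2-30 + Dox over Dox (14.3%). With FPKM + 0.1 the 2-fold counts were 6 lower in Dox over Control (1.46%), 0 higher in Rh2-20 over Control (1.29%), 0 lower in Rh2-20 + Dox over Dox (1.25%), and 4 lower (4.06%) and 1 higher (0.9%) in Rh2-30 + Dox over Dox. The slope test called 143 genes with the Wald test. With Rh2 given or not in place of dose, 2 members were lower at an unadjusted p under 0.05. There 497 of all genes passed in either direction, against 1738 with dose. Cenpm, Ska1, Oip5, Cenpw, Ska3 and Cenph are limited by depth.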
